A study of Homo sapiens with 4 samples.

Results

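Ubiquitin-conjugating enzymes, known as E2 enzymes, were examined by the abundance of their transcripts in MDA-MB-231 cells. Members were all protein-coding transcripts in the deposited table whose gene symbol starts with UBE2 followed by a letter. This rule took 86 transcripts of 31 genes, out of 26348 protein-coding transcripts of 12120 genes and of 43596 transcripts of 15113 gene symbols in all. MDA-MB-231 is a human cell line, long established, from a triple-negative breast cancer. All libraries came from this line, which was given for 24 h either DMSO, the solvent, or 10 µM KH-3, a small molecule that inhibits binding of the RNA-binding protein HuR to its mRNA targets. The series holds 2 libraries with DMSO and 2 with KH-3, described in the methods as biological replicates. A further group with 5 µM KH-3 is named in the methods.

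Each value below is the authors' mean normalized read count of a transcript, a single number averaged over libraries. The table gives no value per library, so sequencing depth is unknown, no error or replicate spread can be attached to any level, and no test was made. The mean is not split by treatment, and the sources used here do not say which libraries entered it, so that libraries with 5 µM KH-3 may be included. It therefore describes the E2 genes in this cell line over the libraries averaged and does not compare KH-3 with DMSO. Transcripts with a mean below 7.34 reads are not listed in the table. To set genes side by side, mean normalized reads were divided by transcript length and summed over the protein-coding transcripts of a gene, and the sum, termed the level of the gene, is given in mean normalized reads per kb.

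Ubiquitin is passed from an activating enzyme (E1) to a cysteine in the active site of an E2, and from there, with the help of a ligase (E3), to a protein substrate. The E2 has a large say in which kind of ubiquitin chain is built, and some E2 enzymes carry related modifiers such as NEDD8 or ISG15 instead. UBE2C and UBE2S serve the anaphase-promoting complex, the ligase that marks cyclins and other mitotic proteins for destruction, and UBE2T is the E2 of the Fanconi pathway of DNA crosslink repair.

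The active-site stretch is shown first for UBE2C, UBE2S and UBE2T, for UBE2M and UBE2N, which ranked between them, and for the close pair UBE2D2 and UBE2D3. It is the part that carries the modifier, and near-identical genes can share reads. Each line gives the coding strand, 5′ to 3′, from the codons for histidine, proline and asparagine, a hallmark of this enzyme family, to the codon of the cysteine that carries ubiquitin or, in UBE2M, NEDD8. The capitals mark these 4 codons. Sequences were read from the MANE Select transcript, the reference transcript agreed between Ensembl and RefSeq, in GENCODE release 44 on hg38.
UBE2C, chr20:45815634-45815666, plus strand, exon 4 of 6: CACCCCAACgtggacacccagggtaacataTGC
UBE2S, chr19:55404345-55404377, minus strand, exon 3 of 4: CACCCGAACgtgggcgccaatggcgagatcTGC
UBE2T, chr1:202333477-202333509, minus strand, exon 4 of 7: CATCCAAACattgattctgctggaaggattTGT
UBE2M, chr19:58556701-58556733, minus strand, exon 4 of 6: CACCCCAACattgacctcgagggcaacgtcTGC
UBE2N, chr12:93411069-93411101, minus strand, exon 2 of 4: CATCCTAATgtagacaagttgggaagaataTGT
UBE2D2, chr5:139614885-139614917, plus strand, exon 5 of 7: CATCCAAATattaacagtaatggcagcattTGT
UBE2D3, chr4:102801503-102801535, minus strand, exon 6 of 8: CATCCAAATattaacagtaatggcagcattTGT

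UBE2C and UBE2S shared 24 of the 33 bases, and UBE2T shared 18 of 33 with each of them. UBE2D2 and UBE2D3, close paralogs on different chromosomes, were the same at all 33 positions. A histidine-proline-asparagine followed by a cysteine after 7 to 9 residues was found in the MANE Select protein of 20 of the 31 genes. The gap was 7 residues in 18 of them and 8 residues in UBE2H and UBE2K. The 11 genes without this spelling were UBE2E1, UBE2E2, UBE2E3, UBE2J1, UBE2J2, UBE2O, UBE2Q1, UBE2Q2, UBE2V2, UBE2W and UBE2Z, which says only that these letters are not there. UBE2V2 is known to have no catalytic cysteine.

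The labelled cell line was set beside marker genes. The 5 mesenchymal markers were all above the median of all genes, from CD44 at 427 mean normalized reads per kb to VIM at 3786, with CAV1 at 2599, MSN at 2755 and AXL at 2814. Of 5 luminal or epithelial markers, GATA3 was at 29.5 and FOXA1 at 39.5, both below the median of all genes. ESR1, PGR and CDH1 had no level to give and were not analysed here.

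Most E2 genes lay in the upper part of the range of all genes. Their median was 338 mean normalized reads per kb, 2.88 times the median of 117 over all 12120 genes. Of the 31 members, 27 were above the median of all genes and 18 were above the upper quartile of 306. Above the 90th percentile of 716 were 5 of the 31 members, UBE2S, UBE2M, UBE2N, UBE2C and UBE2V2, against 1212 of all 12120 genes. The lowest was UBE2F at 24.0, below the lower quartile of 36.6. Together the 86 transcripts held 0.255% of all mean normalized reads in the table.

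**Figure D1:**
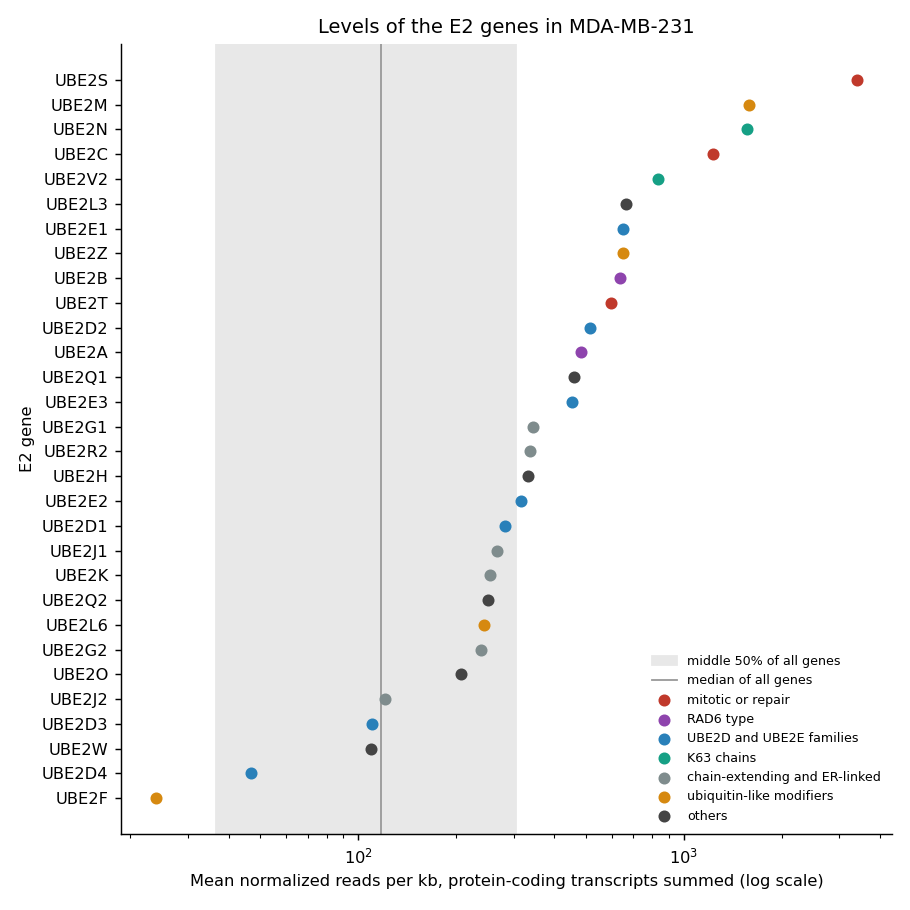
Level of 30 E2 genes in mean normalized reads per kb on a log axis, summed over protein-coding transcripts, with 1 point per gene coloured by role and no error bars, since the table has no values per library. The grey band is the middle 50% of all 12120 genes, from 36.6 to 306, and the line is their median of 117. UBE2S stands at the top at 3410.4 and UBE2F at the bottom at 24.0, and 26 points lie to the right of the line.

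On the scale per kb, the mitotic and repair members stood in the upper part of the family. UBE2S, which extends ubiquitin chains on substrates of the anaphase-promoting complex, had the highest level of all 31 members, at 3410.4 mean normalized reads per kb, the 98.9th percentile of all genes. UBE2C, which places the first ubiquitins on the same substrates, had rank 4 at 1232, the 95.0th percentile. UBE2T had rank 10 at 599, the 87.6th percentile. All 3 lay above the upper quartile of all genes, as did 15 of the other 28 members.

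The median of UBE2C, UBE2S and UBE2T was 1232 mean normalized reads per kb, and that of the other 28 members was 324, a ratio of 3.80. This ratio depended on the division by length. With reads not divided by length, the medians were 1051 and 861 mean normalized reads, and the ratio was 1.22. On that scale UBE2S still ranked first, while UBE2C ranked 14 and UBE2T ranked 23 of 31. Genes are not replicates, and with 3 of them no spread was attached to the ratio.

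UBE2C lies at chr20:45812576-45816957 on the plus strand. Of its 4 protein-coding transcripts, UBE2C-001, the MANE Select form, had 855 mean normalized reads over 850 bases. It held 81.6% of the level of the gene. UBE2C-004, which encodes 140 residues against 179 in the reference form, had 168 reads, and UBE2C-006, with 150 residues, had 15.6 reads. UBE2C-201 had 12.2 reads and encodes 79 residues that do not include the active-site stretch. Transcripts of UBE2C with the stretch thus held 98.5% of its level.

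UBE2S lies at chr19:55399745-55407788 on the minus strand, and its level was spread over 3 transcripts. UBE2S-001, the MANE Select form of 2548 bases, had the most reads, 1629. UBE2S-002, of 743 bases, had 829 reads, and its annotated coding sequence is cut off at an end. UBE2S-003, of only 496 bases, had 821 reads and encodes 79 residues without the active-site stretch. Because it is so short, UBE2S-003 led after division by length with 1655 mean normalized reads per kb, 48.5% of the level of the gene, while UBE2S-001 fell to 639. Transcripts with the stretch held 51.5% of the level. With all reads of the gene divided by its longest listed coding transcript instead, a choice made after the values were seen, UBE2S was at 1287 and UBE2C at 1150 mean normalized reads per kb, where UBE2S kept rank 1 and UBE2C had rank 2 in place of rank 4. A processed pseudogene, UBE2SP2, of 497 bases, was listed with 265 mean normalized reads. Reads from UBE2S and its pseudogene may have been divided between them, so both values are uncertain.

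UBE2T lies at chr1:202331544-202341984 on the minus strand. It had a single protein-coding transcript in the table, UBE2T-001, with 552 mean normalized reads over 922 bases. The identifier of this transcript is not in GENCODE release 44, so its coding sequence was not examined. The MANE Select form of UBE2T in that release, the source of the active-site stretch above, has another identifier. More of the reads of the gene were assigned elsewhere. UBE2T-002, annotated as a retained intron form of 885 bases, had 664 reads, and UBE2T-003, also a retained intron form, had 58.0. These 2 retained intron forms held 56.6% of the reads of UBE2T. Among the 31 members this was the highest share in forms not annotated as protein-coding, in reads though not in reads per kb.

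**Figure D2:**
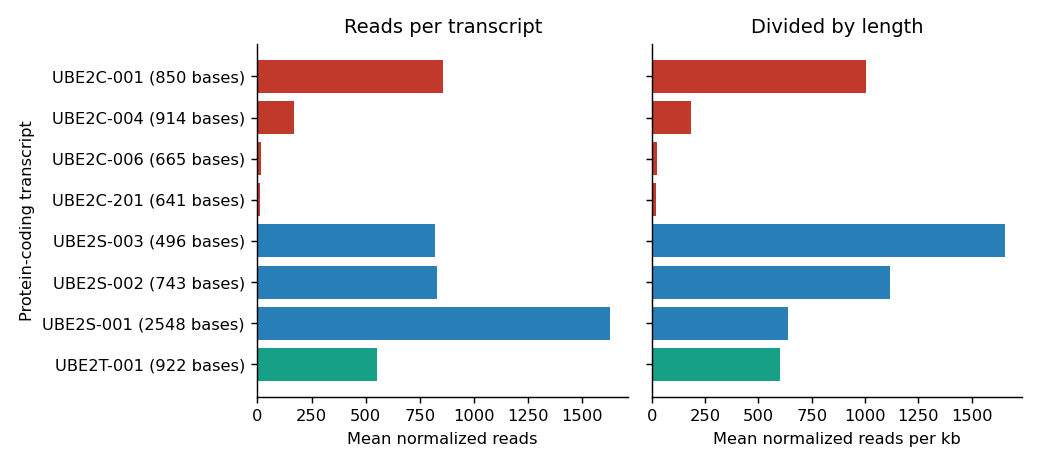
The 8 protein-coding transcripts of UBE2C, UBE2S and UBE2T, 1 bar each, as mean normalized reads (left) and as mean normalized reads per kb (right), with the transcript length in the label and colours by gene. UBE2S-001 leads on the left with 1629 reads, and the shorter UBE2S-003 leads on the right with 1655 reads per kb.

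Among E2 enzymes that carry a modifier other than ubiquitin, the levels ran from the second highest to the lowest of the family, with a median of 243 mean normalized reads per kb over 5 genes. UBE2M and UBE2F both carry NEDD8, the modifier that switches on cullin ligases. UBE2M was at 1583, the 96.5th percentile, and UBE2F at 24.0, the 18.9th. UBE2L6, which works mainly with the interferon-induced modifier ISG15, was at 243. UBE2Z, which takes ubiquitin or FAT10 from the E1 enzyme UBA6, was at 650.0.

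UBE2M, at chr19:58555712-58558954 on the minus strand, had 3 protein-coding transcripts. Its MANE Select form, UBE2M-001, had 840 mean normalized reads over 1508 bases, which was 63.2% of its reads but 35.2% of its level. UBE2M-005, of 349 bases, had 240 reads and UBE2M-006, of 734 bases, had 248. Both are annotated with a coding sequence cut off at an end. With no division by length UBE2M stood at percentile 83.3, and with all its reads divided by its longest listed coding transcript at percentile 94.1, against 96.5 as reported.

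UBE2F, at chr2:237966827-238042782 on the plus strand, was listed with 2 protein-coding transcripts, UBE2F-201 at 29.8 mean normalized reads and UBE2F-202 at 20.9. Its MANE Select transcript had no level to give. The place of UBE2F stayed between percentiles 13.2 and 20.6 under each of the 7 ways in which the level was computed.

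UBE2N and UBE2V2, which act as a pair to build ubiquitin chains linked through lysine-63, both ranked in the top 5. UBE2N, the catalytic partner, was at 1559.5 mean normalized reads per kb. Most of its reads, 1693 of 2449, were assigned to UBE2N-004 of 3018 bases, which encodes the full 152 residues. UBE2N-003, of 607 bases and 105 residues, had 504 reads and led per kb with 53.2% of the level. The MANE Select form UBE2N-001, of 5186 bases, had 111 reads, and its coding sequence also runs to 152 residues. All 4 forms hold the active-site stretch. UBE2N lies at chr12:93405673-93441947 on the minus strand.

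UBE2V2, the partner without a catalytic cysteine, was at 836 mean normalized reads per kb. It lies at chr8:48008415-48064708 on the plus strand. Its transcript with the highest value per kb, UBE2V2-009, had 435 reads and 56.7% of the level, and release 44 gives it no coding sequence. The MANE Select form UBE2V2-001 had 622 reads over 4373 bases. The related UBE2V1, which can take the place of UBE2V2, had no protein-coding transcript with a level and was not a member, and UBE2NL was not analysed here.

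The RAD6-type pair UBE2A and UBE2B, which with their ligases modify histone H2B and the replication clamp PCNA, were at 484 and 635 mean normalized reads per kb. Each was led by a transcript other than the MANE Select form. UBE2A-010, which encodes 77 residues including the active-site stretch, had 684 of the 837 reads of UBE2A. In UBE2B, UBE2B-001, the MANE Select form, had 307 reads and UBE2B-008 had 224, but UBE2B-008 is shorter and held 54.8% of the level. Release 44 gives UBE2B-008 a coding sequence without the stretch and another length than the deposited table does, so transcripts with the stretch held 45.2% of the level of UBE2B only as far as that release applies.

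The UBE2D and UBE2E families, which serve many RING-type ligases, had a median of 315 mean normalized reads per kb over 7 genes. UBE2E1 was highest at 651, followed by UBE2D2 at 515, UBE2E3 at 455, UBE2E2 at 315 and UBE2D1 at 282. UBE2D3 at 111 and UBE2D4 at 46.9 were below the median of all genes. The level of UBE2D2 was 4.65 times that of UBE2D3. Over the 7 ways of computing a level, UBE2D3 ran from percentile 32.3 to 59.8 and UBE2D2 from 80.9 to 87.1. How reads that fit both genes were divided is not known.

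UBE2D3, at chr4:102794383-102868896 on the minus strand, was divided over 6 protein-coding transcripts with lengths from 2227 to 4166 bases. The MANE Select form UBE2D3-001 had 158 mean normalized reads and 35.8% of the level, the lowest leading share among the members, and UBE2D3-202 had 83.6 reads. The other 4 had between 22.2 and 45.5 reads. UBE2D4, at chr7:43926436-43956136 on the plus strand, had a single protein-coding transcript with 186 reads over 3974 bases.

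UBE2E1, at chr3:23805955-23891640 on the plus strand, had 5 protein-coding transcripts. UBE2E1-001, the MANE Select form, had 456 mean normalized reads and 46.4% of the level. UBE2E1-006, with a coding sequence cut off at an end, had 231 reads and 30.5%. The level of UBE2E2 hung on UBE2E2-201, a transcript of 282 bases with 51.8 reads that held 58.2% of the level. Its identifier is not in release 44. With no division by length UBE2E2 dropped from the 75.6th to the 41.7th percentile. UBE2E3 was led by UBE2E3-201 with 389 reads, and 3 of its 4 transcripts encode the full 207 residues.

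The 6 chain-extending and ER-linked members lay close together, from 121 to 345 mean normalized reads per kb with a median of 260, and all were above the median of all genes. UBE2G1, which extends chains on substrates of cullin ligases, was at 345, and UBE2R2, a relative of CDC34 that works with cullin ligases too, was at 338. UBE2K, which builds chains that lead to the proteasome, was at 253. UBE2G2 at 239, UBE2J1 at 268 and UBE2J2 at 121 serve the destruction of misfolded proteins of the endoplasmic reticulum. UBE2J1, UBE2R2 and UBE2G2 had a single protein-coding transcript each.

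UBE2J2, at chr1:1253909-1273864 on the minus strand, had 191 mean normalized reads in 3 protein-coding transcripts. UBE2J2-001, the MANE Select form, had 108 of them, UBE2J2-201 had 57.5 and UBE2J2-013 had the rest. The last encodes only 43 residues of a coding sequence cut off at an end.

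The 6 remaining members had a median of 292 mean normalized reads per kb. UBE2L3, which serves HECT and RBR ligases, was highest at 663. Its leading form, UBE2L3-201 with 1061 mean normalized reads, encodes 212 residues against 154 in the MANE Select form, which had 843. UBE2Q1 was at 458, UBE2H, the E2 of the CTLH ligase, was at 333, and UBE2Q2 was at 251. UBE2O, a very large E2 of 1292 residues with ligase activity of its own, was at 207.

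UBE2W, which attaches ubiquitin to the start of its substrates, was at 109.7, just below the median of all genes. It lies at chr8:73780097-73878910 on the minus strand. UBE2W-008 with 178 mean normalized reads and UBE2W-001 with 171 shared most of its reads, but UBE2W-001 is 8426 bases long, so that UBE2W-008 held 73.6% of the level. UBE2Q2, at chr15:75843307-75901078 on the plus strand, was led by UBE2Q2-001 with 42.0% of its level and 329 reads, ahead of UBE2Q2-004 with 173, UBE2Q2-002 with 113 and UBE2Q2-003 with 42.6 reads. UBE2L5, UBE2QL1 and UBE2U were not analysed here.

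The division of each gene over its transcripts was set beside that of genes at large. The members had a median of 3 protein-coding transcripts in the table, against 2 over all genes. The leading transcript held a median of 72.3% of the level, against 85.2% over all genes. In 6 members it held under 50%, among them UBE2S, UBE2M, UBE2E1, UBE2Q2 and UBE2D3. That is 19.4% of the members, against 10.2% of all genes. The share depends on how the authors' counting program divided reads that fit several transcripts. The leading transcript was the MANE Select form in 19 members.

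The coding sequences behind the levels were taken from release 44, where 84 of the 86 transcripts were found, 52 of them with the same length as in the deposited table. Of the 84, 72 have a complete coding sequence, 11 have one that is cut off at an end, and UBE2V2-009 has none. In 18 of the 29 genes with all transcripts found, the whole level lay in complete forms, and in UBE2M and UBE2V2 under 50% did. The active-site stretch could be followed in 19 genes. In 15 of these, over 90% of the level was in transcripts that encode it. The exceptions were UBE2A at 87.1%, UBE2H at 81.4%, UBE2S at 51.5% and UBE2B at 45.2%.

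**Figure D3:**
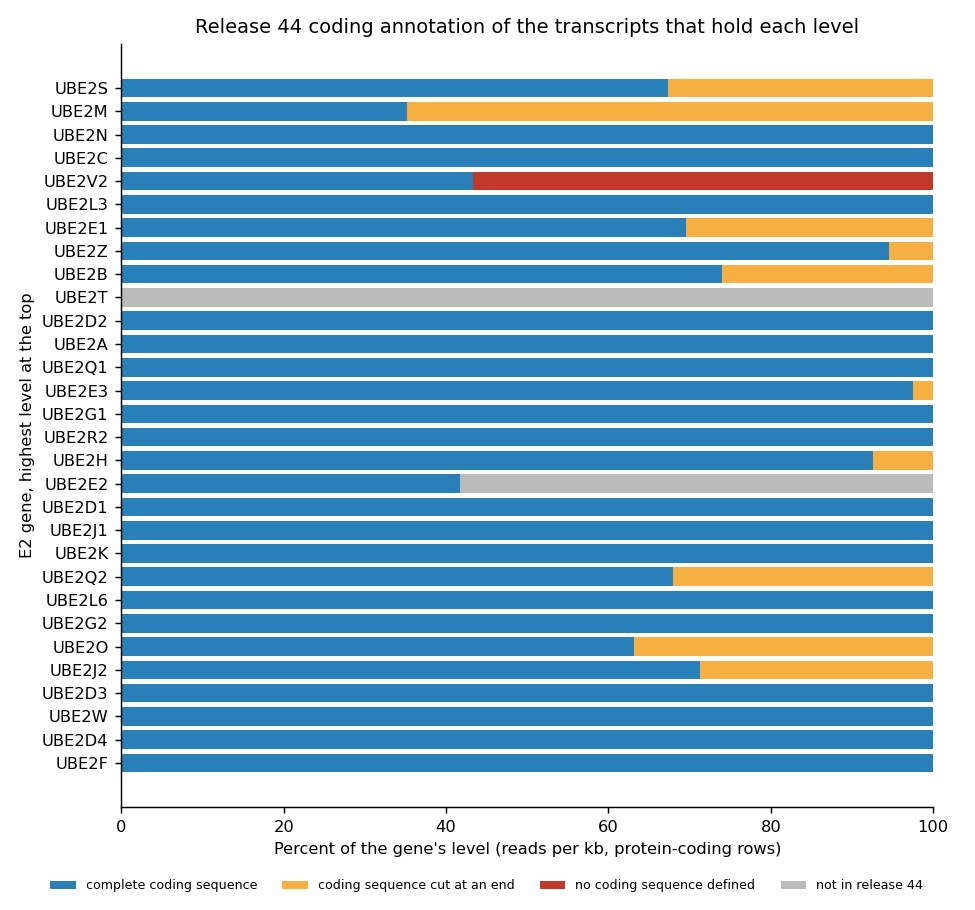
Percent of the level of 30 E2 genes, in mean normalized reads per kb, by the coding annotation of the transcripts in GENCODE release 44. The classes are a complete coding sequence, one cut off at an end, none, or an identifier not in that release. Each gene has 1 bar, ordered by level. Complete forms hold the whole bar in 17 of the genes shown, 35.2% in UBE2M and 43.3% in UBE2V2. The identifier of the UBE2T transcript is not in that release.

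Transcripts of the same genes that are not annotated as protein-coding were set beside the members. There were 45 of them in 26 genes, 21 retained intron forms, 13 processed transcripts and 11 forms annotated for nonsense-mediated decay. They held a median of 7.17% of the reads of a member, against 1.20% over all genes. They held over 25% of the reads in 9 members, which is 29.0% of the members, against 20.1% of all genes. After UBE2T at 56.6%, the shares were 49.2% in UBE2E2, 46.9% in UBE2B and 41.8% in UBE2W. UBE2G2 at 38.4%, UBE2D4 at 38.3%, UBE2J2 at 34.7%, UBE2Q1 at 33.6% and UBE2K at 32.8% followed.

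Single forms not annotated as protein-coding carried most of these reads. In UBE2B, the processed transcript UBE2B-007 had 528 mean normalized reads, more than any of its coding forms. In UBE2E2, the decay form UBE2E2-002 had 239.7 reads against 247 in its coding forms together. UBE2G2-003, a retained intron form, had 479 reads, UBE2K-002, a processed transcript, had 470.3 reads, and the decay form UBE2W-003 had 265. UBE2Q1 differed in having 5 processed transcripts with 40.3 to 236 reads each. Per kb, UBE2Q1-004 of 235 bases alone stood at 634, against 458 for the level of UBE2Q1. UBE2D4-002 stood at 89.2 per kb, against 46.9 for the level of UBE2D4. The order of the shares given here in reads was thus another one per kb.

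The 5 lowest E2 genes included the 3 with the most annotated transcripts, with UBE2D3 at 33, UBE2F at 23 and UBE2J2 at 20. Counted were release 44 transcripts with an identifier number no higher than the highest in the deposited table. Those with a higher number were left out. Reads were aligned by the authors to a transcript database with the default settings of STAR, which drop reads that align to more than 10 places. Over all genes, the median level rose up to 6 to 8 annotated transcripts and fell with each bin after that. It was 73.3 mean normalized reads per kb in genes with 1 annotated transcript, 152 in those with 6 to 8, 116 in those with 11 to 15, 81.9 in those with 16 to 20 and 61.3 in those with 21 or more. UBE2D3 lay above the last of these medians and UBE2F below it. The 12 members with 6 to 8 annotated transcripts had a median of 487, and the 5 with 11 to 15 had one of 455. The 2 members with 21 or more had a median of 67.4. Split at 10 annotated transcripts, the median of all genes was 97.0 above 10 and 130 at 10 or fewer. The 9 members above 10 ran from 24.0 to 651, and the 22 at 10 or fewer from 109.7 to 3410.4. The part of read loss in these levels was not tested.

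**Figure D4:**
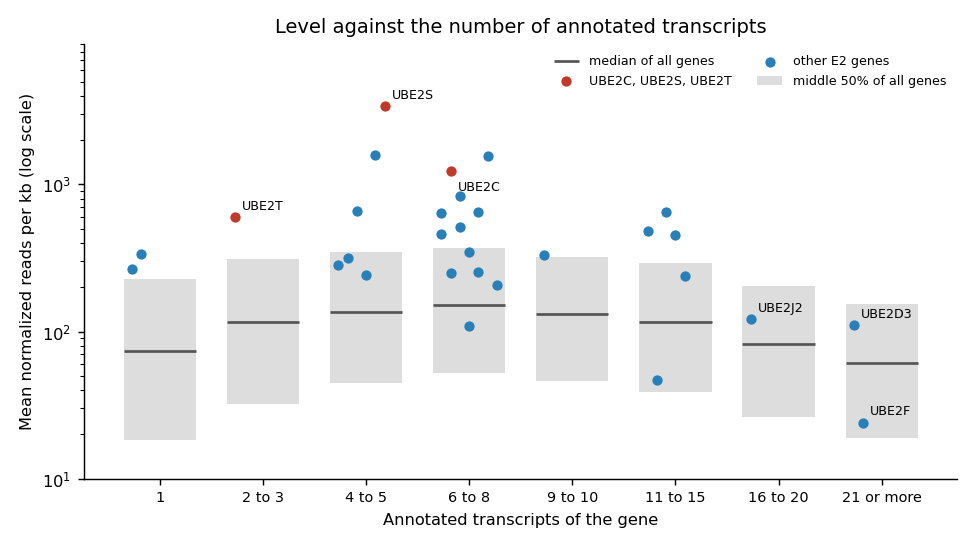
Level of 30 E2 genes in mean normalized reads per kb (log axis) against the number of annotated transcripts of the gene, in 8 bins. Counted are GENCODE release 44 transcripts with an identifier number no higher than the highest in the deposited table. Each gene has 1 point, and horizontal offsets only keep points apart. Grey boxes are the middle 50% and lines the median of all genes in each bin; the median is 73.3 at 1 transcript, highest at 152 at 6 to 8, and 61.3 at 21 or more, where UBE2D3 and UBE2F lie.

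Enzymes upstream and partners of the mitotic and repair members were also present. All 7 E1 genes had a level, with a median of 649 mean normalized reads per kb. UBA1, the main ubiquitin E1, was at 972, UBA6 was at 306, UBA2 was at 1219.9, and SAE1 was at 346. UBA3 and NAE1, which form the NEDD8 E1, were at 649 and 680, next to UBE2M at 1583. UBA7, the E1 for ISG15, was lowest at 26.1, against 243 for UBE2L6. Of the 3 E2 genes without a UBE2 name, CDC34 was at 524, AKTIP at 189 and BIRC6 at 114.

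Of 16 genes of the anaphase-promoting complex and its activators, 14 had a level, with a median of 236 mean normalized reads per kb, and 9 of these were above the median of all genes. CDC20, the activator in mitosis, was highest at 955, and ANAPC10 lowest at 12.4. UBE2S at 3410.4 and UBE2C at 1232 were both above every listed subunit. All 10 Fanconi genes had a level, with a median of 156, from FANCF at 44.2 to FANCI at 391. FANCL, the ligase that works with UBE2T, was at 197, and its substrate FANCD2 was at 180.5. UBE2T at 599 was above each of the 10. These orders hold per kb and were not computed for reads not divided by length. On that other scale UBE2C ranked 14 and UBE2T ranked 23 of the 31 members.

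The place of the E2 genes among all genes was compared over 7 ways of computing a level. The range of the percentile was narrow for UBE2S, from 95.8 to 99.0, and for UBE2Z, from 85.4 to 91.2. It was wider for UBE2C, from 78.4 to 95.9, and for UBE2T, from 61.9 to 94.3. The widest range was that of UBE2E2, from 41.7 to 87.3.

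**Figure D5:**
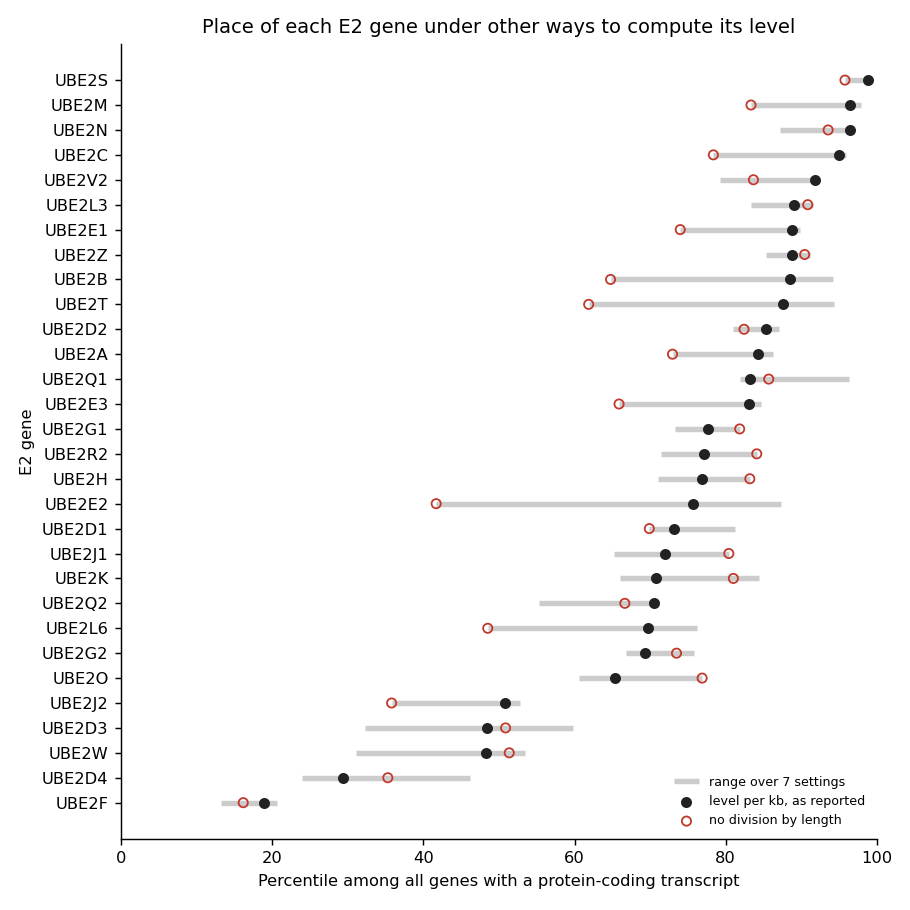
Percentile of 30 E2 genes among all genes with a protein-coding transcript, ordered by reported level, with black points for the reported level per kb, red circles for reads not divided by length and grey bars for the range over 7 settings. UBE2S keeps a range of 95.8 to 99.0, and UBE2E2 spans 41.7 to 87.3.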

How the data were processed

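The series holds RNA-seq of MDA-MB-231 cells with DMSO (2 libraries) or 10 µM KH-3 (2 libraries) for 24 h. Libraries were made from mRNA with a TruSeq kit and sequenced on a HiSeq instrument. According to the methods, the authors aligned reads with STAR at default settings to GENCODE release 24 transcripts, estimated reads per transcript with eXpress and used DESeq2. The submitters' processing notes name STAR, DESeq2 and hg38, and tool versions are not given in the sources used here. The only measurement used is the deposited signal that the authors obtained by averaging normalized reads of each transcript over libraries. The other 3 numeric columns hold the authors' own comparison of KH-3 with DMSO (log2 fold change, p-value and q-value) and were not used, so no treatment effect is given. The table has 0 columns of values per library. No group comparison, test, interval or correction was therefore possible, and sequencing depth is unknown.

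Transcript lengths and types came from the deposited table. Gene positions, MANE Select forms, coding sequences and numbers of annotated transcripts came from GENCODE release 44 on hg38, matched by transcript and gene identifier without version. Annotated transcripts with an identifier number above 640964, the highest in the deposited table, were not counted. The planned identity of whole proteins was not computed, and active-site codons were compared in its place. All members but 1, which is counted in the totals and not reported here, are named at least once. UBE2C, UBE2S and UBE2T, the 5 highest and 5 lowest members and those with under 50% of their level in the leading transcript are given in detail. The members, role groups, partner and marker lists were chosen with earlier results of these data known. The coding and transcript-number descriptions from release 44 and the level over the longest transcript were added after the data were seen. Alternatives were transcripts of all types, the leading transcript only, length less 200 bases (at least 100 bases left), no division by length, and a minimum of 20 mean normalized reads. The computations were tested on simulated data. Python 3.11.15, numpy 2.4.6, pandas 2.3.3, Biopython 1.88 and matplotlib 3.10.9 were used.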

Additional observations from a re-analysis of the deposited data

How the results depend on the processing

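With no error to set a change against, a value was taken as moved where it changed by more than 1.5 times. The ratio of the median level of UBE2C, UBE2S and UBE2T to that of the other members was 3.80 as reported and 1.22 with no division by length, where the medians were 1051 and 861 mean normalized reads. It lay between 3.37 and 4.46 under the other 5 alternatives. The median of the members over that of all genes was 2.88 as reported and lay between 2.49 and 3.37 under the 6 alternatives. Between 25 and 27 of the 31 members were above the median of all genes, and 5 or 6 had under 50% in the leading transcript, under each alternative run for these counts. The median share of forms not annotated as protein-coding was 7.17% of reads and 9.26% of the level per kb. Percentiles have an upper limit, so a gene high in the range cannot rise by 1.5 times. Such a gene must fall far to count as moved. With no division by length, UBE2T fell from percentile 87.6 to 61.9 and UBE2L6 from 69.7 to 48.5, and neither counted as moved. The number of unmoved percentiles is therefore partly set by the rule and is no measure of stability. Of 186 recomputed percentiles of single genes, 181 moved by less than 1.5 times and 5 by more. The 5 were UBE2D3 at 32.3 with the leading transcript only, UBE2D4 at 46.1 with transcripts of all types, UBE2E2 at 41.7 with no division by length, and UBE2E2 at 48.1 and UBE2W at 31.1 over the longest coding transcript. The causes were not tested. No paired analysis was possible because the table holds no values per library, and for the same reason no library could be left out in turn.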

Other observations

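A few entries with an E2-like symbol had no protein-coding transcript with a level and stand outside the members. UBE2V1, the relative of UBE2V2 that also pairs with UBE2N, was listed with a processed transcript at 20.1 mean normalized reads and a retained intron form at 10.8. The pseudogene UBE2Q2P1 was listed with a processed transcript at 39.0 mean normalized reads, and UBE2Q2P2 with 2 processed transcripts at 27.6 and 11.3. UBE2Q2 itself had 658 mean normalized reads in its protein-coding transcripts, a value that is uncertain because the division of reads between near-identical copies is not known.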
